A study of Mus musculus with 3 samples.

Results

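The mitochondrial ribosomal protein genes were taken as all genes whose symbol starts with Mrpl (large subunit) or Mrps (small subunit) followed by a digit. The arrays carried 100 probes for 78 such genes, and 77 genes had a probe well above background in at least 1 channel on all 3 arrays, out of 19328 genes and unnamed features measured. These 77 members comprised 48 Mrpl and 29 Mrps genes, each represented by its brightest probe, and every chosen probe was well above background in both channels on all 3 arrays. The probe of Mrpl21 was well above background in neither channel on any array and was left out. The tissue was whole brown fat of male mice aged 10 weeks and kept on regular chow, measured on 3 two-colour arrays. Each array set RNA of an Ad-Lkb1 sample, labelled with Cy5, against RNA of a wild-type littermate sample, labelled with Cy3. Strain names also differ, with C57BL/6J named for the Ad-Lkb1 mice and C57BL/6 for the wild-type mice. The deleted gene is Stk11, which encodes the kinase LKB1, and the labels used here do not say which promoter or cell type the deletion rests on. Dye, strain name and genotype cannot be told apart, because the orientation was the same on every array, and all values below are log2 ratios of Ad-Lkb1 over wild type unless a level is named.

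Mitochondria translate the few proteins that their own DNA encodes, all of them hydrophobic subunits of the respiratory chain and the ATP synthase, on a ribosome of their own. Its RNAs come from mitochondrial DNA, whereas every one of its proteins is encoded in the nucleus, made in the cytosol and imported. The small subunit reads the messenger RNA at the decoding centre, and the large subunit joins the amino acids and releases the chain through an exit tunnel that faces the inner membrane. Part of the proteins descend from the bacterial ribosome and part were added in the mitochondrial lineage. Brown fat is rich in mitochondria and burns fuel for heat through the uncoupling protein UCP1.

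Between 46.7% and 51.3% of the features on an array were well above background in a channel and with 3 arrays in all, their number sets the precision. Stk11 had a ratio of -1.26, -1.17 and -1.17 on arrays 1 to 3, and Ucp1 rose 2.78-fold (adjusted p = 0.0114). Of 12 brown adipocyte markers, 12 were measured and 5 were past the threshold, all higher in Ad-Lkb1 tissue. Macrophage markers, 17 of 18 measured, had a median ratio of 1.63 with 9 higher, and fibroblast and matrix markers, 9 of 9 measured, had a median of 0.79 with 6 higher. Of 11 skeletal muscle markers, 7 were measured (Ckm, Myh1, Myh2 and Actn3 had no kept probe), and their median was -3.17 on array 1, 2.36 on array 2 and 3.90 on array 3, so muscle RNA was the higher in the wild-type sample of array 1 and in the Ad-Lkb1 samples of arrays 2 and 3. Summed over the list, the log2 level of muscle markers ran from 9.72 to 13.80 in wild type and from 10.16 to 14.11 in Ad-Lkb1 tissue, and that of macrophage markers from 11.95 to 12.95 and from 13.88 to 14.16, without overlap. The part of these markers in the members' ratios was not tested. In whole tissue, fewer cells of a type and less RNA per cell cannot be told apart, and this holds for every member below.

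Most mitochondrial ribosomal protein genes differed little between the genotypes. Of the 77 members, 7 were lower in Ad-Lkb1 tissue past the threshold (Mrps16, Mrpl51, Mrpl41, Mrpl34, Mrps25, Mrps12 and Mrps18a) and 1, Mrpl54, was higher (limma, Benjamini-Hochberg adjusted p under 0.05 over all features). Over all features the share past the threshold was 8.70%, with 3.92% lower and 4.78% higher, so the share of 8 in 77 members lay near the background. Among the members 9.09% were lower and 1.30% higher. The members are bright, and their median log2 intensity was 11.6 against 7.64 for all features. Among the 1613 features whose intensity lay between the members' quartiles, 126 were lower (7.81%) and 70 higher (4.34%). The calls depended on arrays 1 and 2: limma called 0 of the 19328 features without array 1 and 0 without array 2, whereas without array 3 it called 2052 features and 6 members, 5 of them among the 8. At an unadjusted p under 0.05 there were 29 members (37.7%) with all arrays against 29.3% of all features, 20 (26.0%) against 20.3% without array 1, and 15 (19.5%) against 18.4% without array 2. With median centring in place of loess, which does not remove a dye curve over intensity, all 77 members lay below 0 with a median of -0.81. That setting called 69 members and 52.2% of all features, moved the median of all features to -0.42 and that of the 1613 features of like intensity to -0.78, and gave Mrpl54 -0.17. On the processed signals limma called 0 members (11 at an unadjusted p under 0.05) and 816 features (4892 unadjusted). On the value table that the authors deposited it called 0 members (10 unadjusted) and 806 features (5013 unadjusted). There the ratios of Mrps16 (-0.60), Mrpl51 (-0.62), Mrpl54 (0.60) and Mrps25 (-0.46) were not smaller in size. Those of Mrpl34 (-0.50), Mrpl41 (-0.49), Mrps12 (-0.30) and Mrps18a (-0.29) were smaller.

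**Figure D1:**
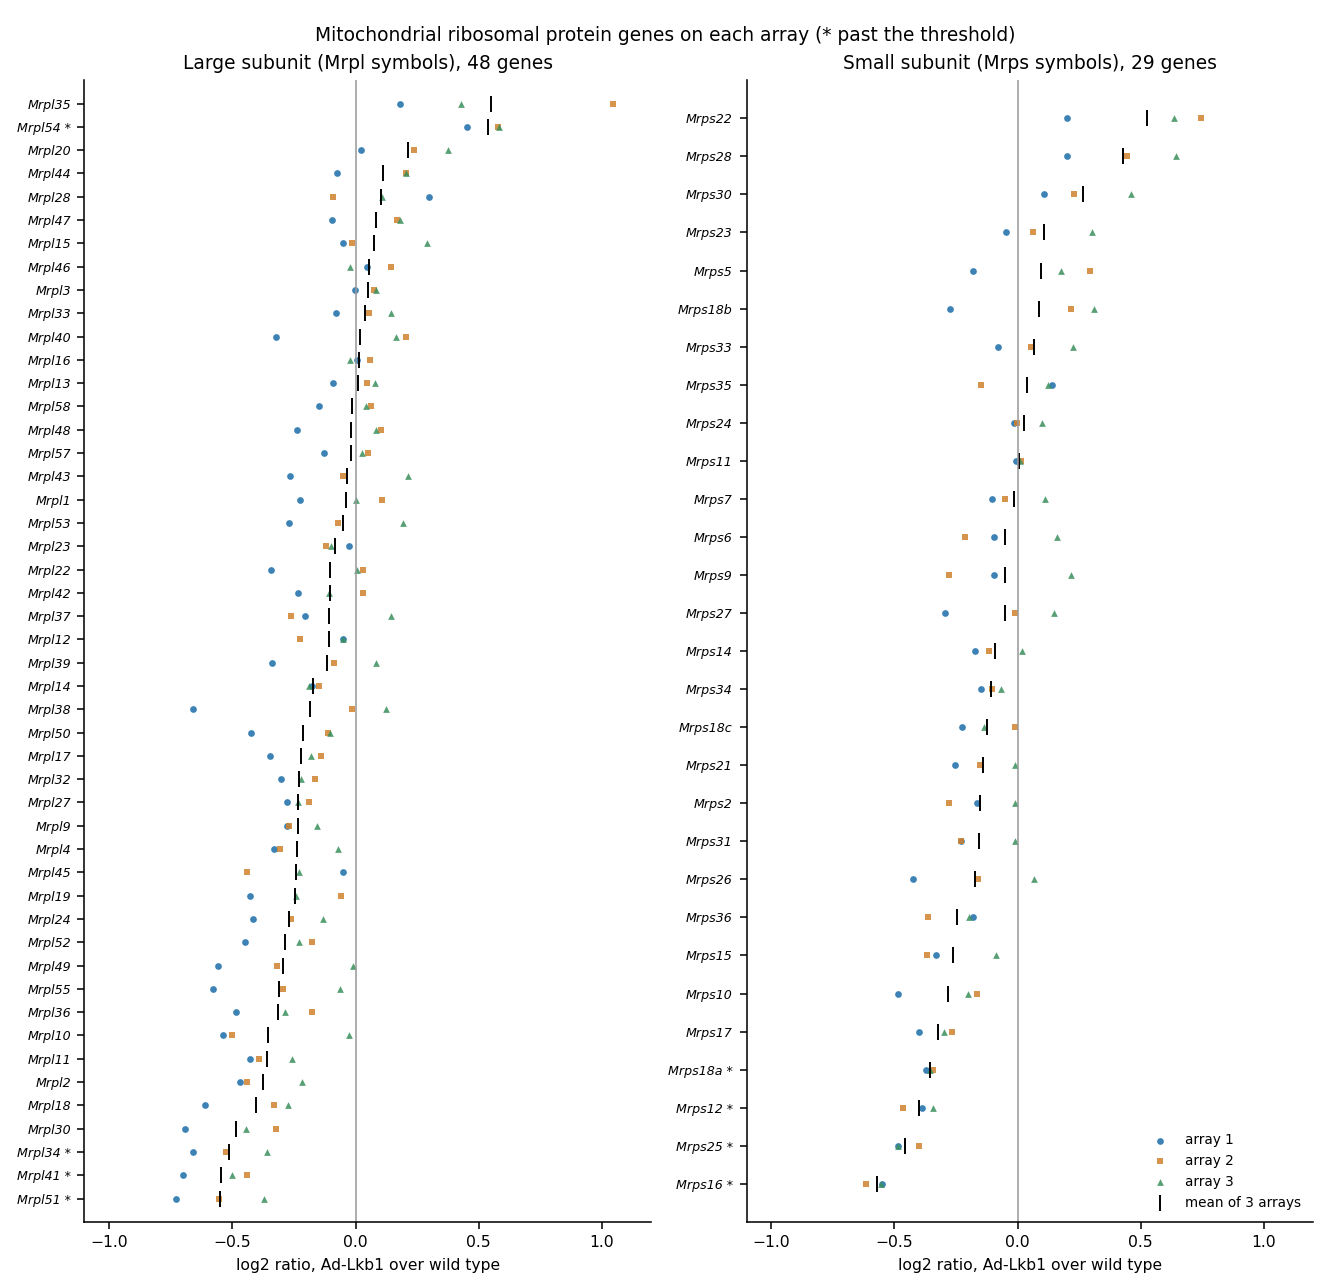
Each row is 1 gene, large subunit on the left (48 genes) and small subunit on the right (29 genes), ordered by the mean of the ratio (log2, Ad-Lkb1 over wild type) on the horizontal axis. Coloured symbols are the 3 arrays, the black tick is their mean, and an asterisk marks the 8 genes past the threshold. The means run from -0.57 (Mrps16) to 0.55 (Mrpl35), with quartiles at -0.26 and 0.02. The blue circles of array 1 lie left of 0 for 67 of the 77 genes. With median centring the mean of every gene lies below 0.

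As a group the members lay slightly below 0, with a median ratio of -0.11 (quartiles -0.26 and 0.02), against -0.01 for all features and -0.07 for features of like intensity. It differed between arrays: the members' median was -0.23 on array 1, -0.12 on array 2 and -0.01 on array 3, whereas the features of like intensity had -0.07, -0.06 and -0.06. On array 1, 67 of the 77 members were below 0, on array 2 this held for 52, and on array 3 for 40. The members' median thus lay below that of like intensity on arrays 1 and 2, with the wider gap on array 1, and above it on array 3. The skeletal muscle markers named above followed the same order over the arrays (-3.17, 2.36 and 3.90). So did Ppargc1a, of the nuclear regulators listed below, with -0.94, 0.13 and 1.98. The part of the muscle markers and of Ppargc1a in the members' medians was not tested. Without array 1 the members' median was -0.05, and without array 3 it was -0.16. In all, 37 members (48.1%) were below 0 on all 3 arrays, against 27.7% of all features and 38.5% of the features of like intensity. Only 6 members (7.79%) were above 0 on all 3, against 24.0% of all features. The Ad-Lkb1 levels lay entirely below the wild-type levels for 28 members (36.4%), against 18.6% of all features and 28.6% of those of like intensity. They lay entirely above for 5 members (6.49%), against 17.7% and 16.5%.

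The large and the small subunit did not stand apart. The 48 large subunit genes had a median ratio of -0.11, with 3 lower (6.25%) and 1 higher (2.08%) past the threshold. The 29 small subunit genes had a median of -0.09, with 4 lower (13.8%) and 0 higher. Of all features 3.92% were lower and 4.78% higher, and of those of like intensity 7.81% and 4.34%. At an unadjusted p under 0.05 in limma, 16 large subunit genes were lower and 2 higher, and 8 small subunit genes were lower and 3 higher. Of all features 29.3% lay under that p. The large subunit's median minus the small subunit's was -0.09 on array 1, 0.05 on array 2 and -0.04 on array 3. The sign of this difference changed between arrays. The symbols do not always match the subunit in which the protein sits: the products of Mrps18a and Mrps30 are part of the large subunit, and that of Mrps36 is now known as a component of the 2-oxoglutarate dehydrogenase complex. With these genes assigned by structure the difference was -0.10, 0.03 and -0.07 on arrays 1 to 3. Over the alternative settings the difference between the subunits' medians stayed between -0.08 and -0.01. Members with a bacterial counterpart (45 genes) had a median of -0.14 with 3 lower (6.67%). Mitochondria-specific members (31 genes) had a median of -0.05 with 4 lower (12.9%) and 1 higher (3.23%).

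**Figure D2:**
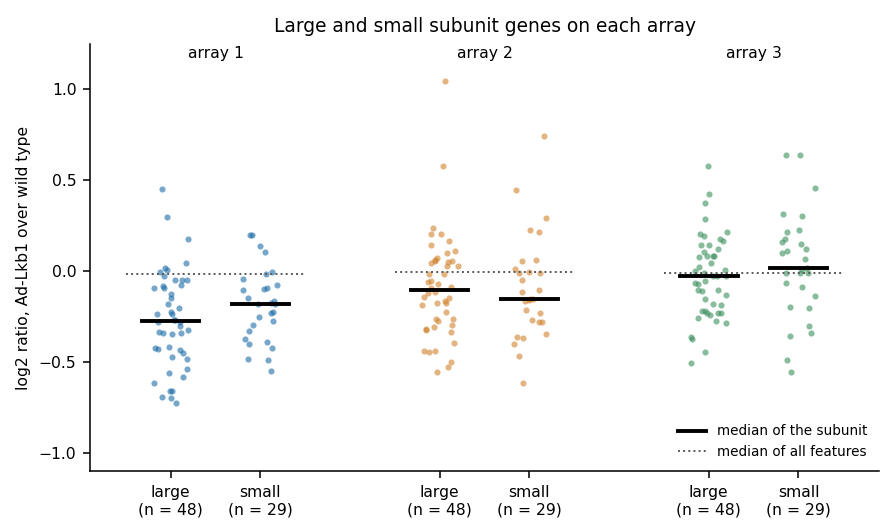
The vertical axis is the ratio on 1 array (log2, Ad-Lkb1 over wild type), and each point is 1 gene, with the 48 large and 29 small subunit genes side by side for arrays 1, 2 and 3. Black bars are the subunit medians (-0.27 and -0.18, -0.10 and -0.15, -0.02 and 0.02) and dotted lines the median of all features. Both subunits lie farthest below 0 on array 1 and nearest to 0 on array 3, and neither lies below the other on every array.

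Among large subunit genes, Mrpl51, which encodes a mitochondria-specific protein of the subunit, had log2 levels of 14.29, 14.20 and 14.21 in wild type on arrays 1 to 3 and 13.57, 13.65 and 13.84 in Ad-Lkb1. The groups did not overlap, and wild type was 1.47-fold higher (ratio -0.55 ± 0.18 SD, n = 3 arrays, adjusted p = 0.0414). Mrpl41, another protein without a bacterial counterpart, had wild-type levels of 12.55, 12.30 and 12.36 and Ad-Lkb1 levels of 11.85, 11.86 and 11.86. All Ad-Lkb1 samples were thus nearly equal and below every wild-type sample, 1.46-fold in the mean (-0.55 ± 0.13, adjusted p = 0.0343). Mrpl34, the counterpart of the bacterial protein L34, had wild-type levels of 13.02, 13.08 and 12.98 against 12.37, 12.56 and 12.62 in Ad-Lkb1 tissue. Wild type was 1.43-fold higher without overlap (-0.51 ± 0.15, adjusted p = 0.0409), with the widest gap on array 1.

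Mrpl54 was the only member higher in Ad-Lkb1 tissue past the threshold. Its product lies by the base of the stalk that recruits translation factors. Its levels were 11.70, 11.65 and 11.62 in wild type and 12.15, 12.23 and 12.20 in Ad-Lkb1 tissue. Every Ad-Lkb1 level lay above every wild-type level, and the gene rose 1.45-fold (0.54 ± 0.07, adjusted p = 0.0278), but with median centring its ratio was -0.17, which is 0.25 above the median of all features and 0.61 above that of like intensity under that setting.

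Among small subunit genes, Mrps16 had the lowest mean ratio of all members. It is the counterpart of bacterial S16, a protein needed to assemble the subunit, and its wild-type levels were 12.72, 12.69 and 12.63 against 12.17, 12.08 and 12.08 in Ad-Lkb1. The groups lay far apart relative to their spread (ratio -0.57 ± 0.036 SD, 1.49-fold higher in wild type, adjusted p = 0.0235). Mrps25, a mitochondria-specific protein of the small subunit, had 11.49, 11.44 and 11.27 in wild type and 11.01, 11.04 and 10.78 in Ad-Lkb1 tissue. Array 3 was the lowest for both genotypes, and the ratio was alike on all arrays (-0.46 ± 0.05, adjusted p = 0.0332).

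Mrps12, the counterpart of the bacterial decoding centre protein S12, had levels of 12.25, 12.40 and 12.17 in wild type and of 11.86, 11.93 and 11.83 in Ad-Lkb1 tissue, again without overlap (-0.40 ± 0.06, 1.32-fold higher in wild type, adjusted p = 0.0428). Mrps18a, which by its structure belongs to the large subunit, had 11.82, 11.83 and 11.90 against 11.45, 11.49 and 11.54. Its ratio was the smallest in size of the 7 lower genes and varied least over the arrays (-0.37, -0.34 and -0.36, adjusted p = 0.0471). It was also the call that held under the fewest settings, 5 of 14, where Mrps16 held under 10 of 14. Both counts include median centring, which called 69 members.

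**Figure D3:**
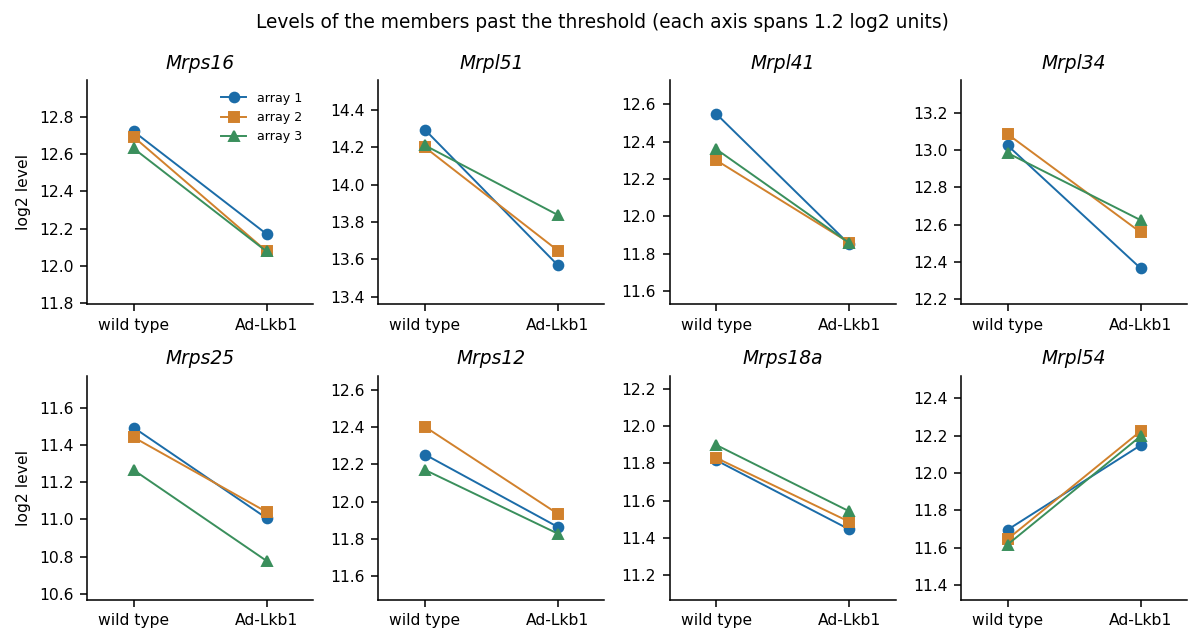
Each panel is 1 of the 8 genes past the threshold, with the normalised log2 level on the vertical axis (1.2 units in every panel) in wild type on the left and Ad-Lkb1 on the right. A line joins the samples of 1 array. All lines fall in the 7 panels from Mrps16 to Mrps18a and rise for Mrpl54, where with median centring the mean ratio was -0.17.

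On the high side, some members had ratios as far from 0 as these without passing the threshold, with a wider spread over the arrays. Mrpl35, the large subunit gene with the highest mean ratio, had 0.18, 1.05 and 0.43 on arrays 1 to 3 (mean 0.55 ± 0.45, adjusted p = 0.136). Its wild-type levels were 8.23, 7.47 and 7.94 and its Ad-Lkb1 levels 8.41, 8.52 and 8.37. The gene is dim, and its wild-type spot signals before background correction and normalization were 384, 401 and 328, an order that the normalised levels do not follow. Mrps22, which encodes a mitochondria-specific small subunit protein, had ratios of 0.20, 0.74 and 0.64 (adjusted p = 0.0785), and Mrps28, the counterpart of bacterial S1, had 0.20, 0.44 and 0.64 (adjusted p = 0.0823). For these 3 genes the Ad-Lkb1 levels lay above all wild-type levels, with the smallest gap on array 1. With median centring, which put every member below 0, their mean ratios were -0.03, -0.19 and -0.28 beside the members' median of -0.81.

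On the low side, Mrpl30 had ratios of -0.69, -0.32 and -0.45 (adjusted p = 0.0546) and Mrps17 had -0.40, -0.27 and -0.30 (adjusted p = 0.0645). Both are counterparts of bacterial proteins that bind ribosomal RNA, and neither gene's groups overlapped. Mrpl49 had -0.56, -0.32 and -0.01 (adjusted p = 0.204). Mrpl38, a protein of the central protuberance, varied more, with -0.66 on array 1, -0.01 on array 2 and 0.12 on array 3. Its mean of -0.18 (adjusted p = 0.548) rested on array 1, and without that array it was 0.06.

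The stalk of the large subunit, which recruits the translation factors, had 5 members with a median of -0.11. Mrpl11 at its base had ratios of -0.43, -0.39 and -0.26 (adjusted p = 0.0577), and Mrpl10, which anchors the stalk, had -0.54, -0.50 and -0.03 (adjusted p = 0.155). Mrpl12, the mobile stalk protein itself, had -0.05, -0.23 and -0.05, and Mrpl53 had -0.27, -0.07 and 0.19. The stalk thus held Mrpl54, the single member called higher, beside neighbours whose ratios were mostly below 0.

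The 6 measured genes assigned here to the tunnel exit, where the new chain leaves towards the membrane, had a median of -0.16. Of them 0 passed the threshold in limma and 2 were lower at an unadjusted p under 0.05, where 29.3% of all features lay. Among them Mrpl24 had -0.41, -0.26 and -0.13, and Mrpl45, which anchors the ribosome at the inner membrane, had -0.05, -0.44 and -0.23. The 6 genes assigned here to the central protuberance, which contacts the small subunit, had a median of -0.10. Here too 0 passed the threshold and 2 were lower at an unadjusted p under 0.05, beside the same 29.3% of all features. There Mrpl18 was lowest with -0.61, -0.33 and -0.27 (adjusted p = 0.0736), whereas Mrpl46 had 0.05, 0.14 and -0.02. Differences between the regions were not tested.

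The paralogs of bacterial S18 differed among themselves. Mrps18a was lower past the threshold, as given above. Mrps18c, the one that takes the place of S18 in the small subunit, had ratios of -0.22, -0.01 and -0.14 (adjusted p = 0.368). Mrps18b had -0.27, 0.22 and 0.31 (adjusted p = 0.730), and its mean of 0.09 turned to -0.03 without array 3 and to -0.62 with median centring. Differences between these paralogs were not tested. Mrps30, the other Mrps gene whose product sits in the large subunit, had 0.11, 0.23 and 0.46 (adjusted p = 0.154), with a mean of -0.45 under median centring. Mrps36 had -0.18, -0.36 and -0.19 (adjusted p = 0.119), without overlap of the groups.

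The remaining genes at the upper end had small ratios. In the large subunit Mrpl20 had a mean of 0.21, Mrpl44 of 0.11 and Mrpl28 of 0.10, and in the small subunit Mrps23 had 0.11 and Mrps5 0.10. None of these 5 passed the threshold (adjusted p from 0.228 for Mrpl20 to 0.636 for Mrps5), and with median centring they lay between -0.61 and -0.49, above the members' median of -0.81. The 43 members not described singly had mean ratios from -0.38 to 0.08, with 33 of them below 0 and a median SD over the arrays of 0.14. None of the 43 passed the threshold, and the smallest adjusted p among them was 0.0674 (limma). A second probe bears on 22 members, and for 7 of them its mean ratio had the opposite sign (Mrpl15, Mrpl27, Mrpl40, Mrpl41, Mrpl47, Mrps23 and Mrps33). Of the genes past the threshold only Mrpl41 and Mrps25 had a second kept probe. Mrpl41's had 0.09, and it was dim, with a mean log2 intensity of 6.49 against 12.1 for the probe used. Mrps25's had -0.08, with an intensity of 6.54 against 11.2. When a gene's kept probes were averaged, 6 of the 8 genes were called and these 2 were not.

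The promoters of the members have features in common that the choice of genes did not use. RefSeq's table for GRCm38.p6 holds the start region (250 bases before the start in a 300-base window) of 69 of the 78 genes. Motifs were searched on both strands, and a match is a description of the letters only. The NRF1 motif GCGCANGCG was found in 16 of 69 members (23.2%), against 7.03% of 27025 genes in the table. The ETS motif CCGGAAGT, known from GABPA, was found in 12 (17.4%) against 4.31%, and the YY1 motif AAGATGGCG in 8 (11.6%) against 1.64%. NRF1, GABPA and YY1 are transcription factors known to act on nuclear genes for mitochondrial proteins. The core CCAAT of NF-Y was found in 27 members (39.1%), close to its share of all genes (41.1%), and the motif TCAAGGTCA of the estrogen-related receptors in 0, where 0.466% of all genes hold it.

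By the NRF1, ETS or YY1 motif the members' ratios differed little: the median was -0.16 with and -0.10 without the NRF1 motif, -0.09 and -0.11 for ETS, and -0.08 and -0.13 for YY1. With CCAAT the 27 measured members had a median of -0.23, and the 41 without it had -0.05. This gap had the same direction on each array (-0.34 against -0.18, -0.23 against -0.05 and -0.11 against 0.00) and under all 14 alternative settings. Those settings reuse the same arrays and the same split of the members, so their agreement adds no support. Of the 7 genes past the threshold that are in the table, 5 held CCAAT (Mrpl41, Mrps12, Mrps16, Mrps18a and Mrps25), which 41.1% of all genes in the table hold. The motifs were chosen with the ratios known, and no test of the gap was made. The gap was not taken over all measured genes, so it cannot be called particular to the members. Mrpl54 is not in the table used.

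Many members begin close to another gene that runs the opposite way. Of the 69, 27 (39.1%) have such a partner whose start lies at most 1000 bases away, against 13.2% of all genes in the table. For 22 of these pairs both genes were measured. The partners had a median ratio of -0.07, from -0.74 to 0.31, and 0 passed the threshold in limma. At an unadjusted p under 0.05 there were 1 higher and 6 lower, where 29.3% of all features lay. In 10 of the 22 pairs member and partner had the same sign. The stretches between the starts of 4 pairs are shown because the same short sequence lies before 2 genes whose ratios could be set side by side. For Mrpl51 only the 150 bases before its own start are shown. Matches to the motifs above are in capitals. All sequences are from the plus strand of GRCm38.p6, and CCAAT on the other strand reads ATTGG.

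Mrps11 and Mrpl46 join a small and a large subunit gene, whose starts are 42 bases apart at chr7:78783090-78783130, and these 41 bases hold none of the motifs (the whole start region of Mrps11 has a YY1 match). Mrps11, which lines the platform of the small subunit, had ratios of -0.01, 0.01 and 0.01, the smallest mean of all members in size, and Mrpl46 had a mean of 0.06, and neither gene of the pair passed the threshold.
Mrps11 and Mrpl46: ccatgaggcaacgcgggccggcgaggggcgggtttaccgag
Mrps12 and Sars2, the latter the mitochondrial seryl-tRNA synthetase, flank chr7:28741822-28741967, which holds CCAAT 3 times. Mrps12 had -0.39, -0.47 and -0.34, and Sars2 had 0.22, 0.04 and 0.30, so the signs were opposite on every array (Sars2 adjusted p = 0.223).
Mrps12 and Sars2: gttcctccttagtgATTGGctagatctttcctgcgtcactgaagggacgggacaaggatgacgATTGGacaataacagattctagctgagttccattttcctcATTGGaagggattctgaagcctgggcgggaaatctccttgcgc
Mrpl18 and Tcp1, which encodes a subunit of the cytosolic chaperonin, flank chr17:12916092-12916328 with 1 CCAAT (the whole start region of Mrpl18 also has an ETS match). Mrpl18 had -0.61, -0.33 and -0.27, and Tcp1 had 0.43, 0.23 and 0.27, again opposite on every array, though neither passed the threshold (Tcp1 adjusted p = 0.0819).
Mrpl18 and Tcp1: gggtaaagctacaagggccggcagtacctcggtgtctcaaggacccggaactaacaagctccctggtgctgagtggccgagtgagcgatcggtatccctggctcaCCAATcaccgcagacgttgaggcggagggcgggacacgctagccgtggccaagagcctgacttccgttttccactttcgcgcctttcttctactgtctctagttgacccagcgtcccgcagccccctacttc
Mrpl43 and Twnk, the helicase of mitochondrial DNA, flank chr19:45006443-45006557 with 1 ETS match. Mrpl43 had -0.27, -0.05 and 0.21 and Twnk had -0.18, -0.53 and -0.02, without a common order over the arrays.
Mrpl43 and Twnk: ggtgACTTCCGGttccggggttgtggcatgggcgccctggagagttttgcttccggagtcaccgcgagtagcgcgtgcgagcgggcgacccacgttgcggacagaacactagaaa
Mrpl51 is shown as the called gene with an ETS match, at chr6:125192050-125192199. Its partner Ncapd2, a condensin subunit, starts 614 bases away, beyond the bases shown. Ncapd2 had -0.24, -0.30 and -0.64 (adjusted p = 0.0921), below 0 on every array as Mrpl51 was.
Mrpl51: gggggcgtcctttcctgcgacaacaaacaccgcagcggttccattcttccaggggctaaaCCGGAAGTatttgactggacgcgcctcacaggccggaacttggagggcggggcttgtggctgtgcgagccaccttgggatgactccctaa

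**Figure D4:**
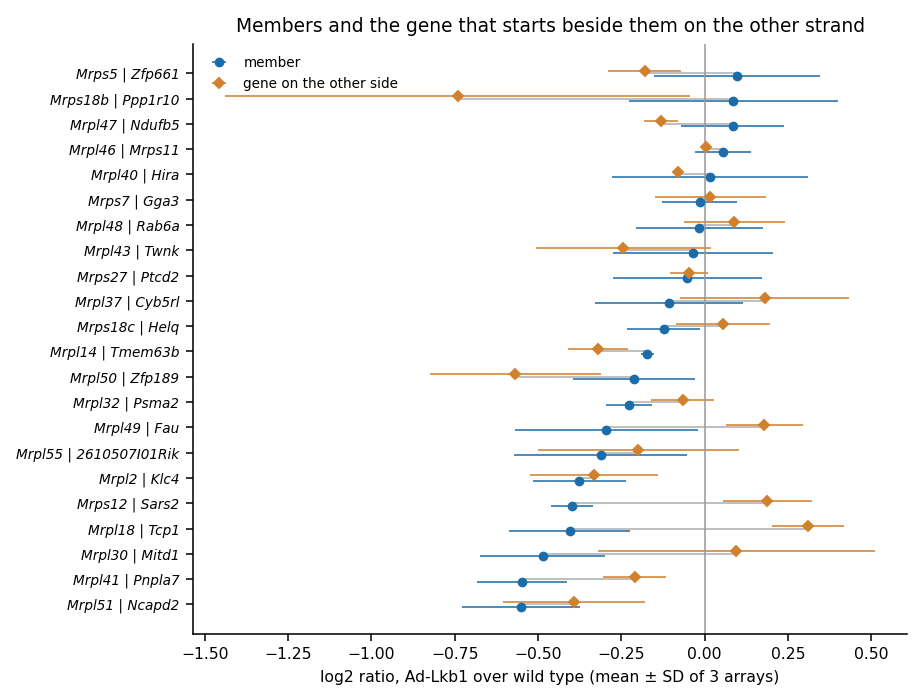
Each row is 1 of the 22 measured pairs, the member first and the gene on the other strand second. The horizontal axis is the ratio (log2, Ad-Lkb1 over wild type) as mean ± SD of 3 arrays, with circles for members and diamonds for partners. The pairs at the bottom, with Mrpl51, Mrpl41, Mrpl30, Mrpl18 and Mrps12, have partners from -0.39 to 0.31, and 10 of the 22 pairs have the same sign.

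Of 85 measured genes that build, load and regulate the mitochondrial ribosome, in 6 lists, 7 passed the threshold (8.24%), near the background of 8.70%. At an unadjusted p under 0.05 the background for the counts that follow was 29.3%. Of the 5 ribosomal subunits with other symbols, 0 passed the threshold (2 higher and 1 lower at an unadjusted p under 0.05), and the highest were Gadd45gip1, known also as a large subunit protein, with 0.44 (adjusted p = 0.0552) and Ptcd3 of the small subunit with 0.33. Of 24 measured assembly and ribosomal RNA modification genes (median -0.05), 1 was lower: Rpusd4, a pseudouridine synthase acting on the large ribosomal RNA, with -0.35, -0.57 and -0.53 (adjusted p = 0.0384). Of 15 translation factors (median -0.13), 1 was higher: the elongation factor Gfm1, with 0.38, 0.33 and 0.45 (adjusted p = 0.0444), or -0.32 with median centring.

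Of 19 mitochondrial tRNA synthetases and partners (median -0.04), 2 were higher and 1 lower. Cars2, which charges the cysteine tRNA, had the widest difference of these lists, with 1.40, 1.27 and 1.12 (adjusted p = 0.0115), and Tars2 had a mean of 0.51, or -0.20 with median centring. Hars2 had a mean of -0.39 (adjusted p = 0.0420). Of 13 genes of mitochondrial transcription and DNA maintenance (median -0.13), 1 was higher, the topoisomerase Top1mt with 0.58, or -0.10 with median centring. Of 9 nuclear regulators (median 0.01), 1 was higher, Myc with 0.81 (adjusted p = 0.0231). Ppargc1a had -0.94, 0.13 and 1.98 on arrays 1 to 3 (adjusted p = 0.702 in limma), and Ppargc1b had a mean of -0.40 (adjusted p = 0.0772). Of the factors whose motifs were searched, Nrf1 had 0.06, Gabpa -0.01, Yy1 -0.20 and the estrogen-related receptor gene Esrra -0.22, none past the threshold. The genes of NF-Y were in none of the lists. No gene of mitochondrial DNA could be set beside the members, since none was named by a RefSeq accession on these arrays.

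Beside the mitochondrial ribosome, the cytosolic one had more of its genes past the threshold, and on the other side. Of 85 measured genes with Rpl or Rps symbols, 19 were higher (22.4%, background 4.78%) and 0 lower (45 higher and 1 lower at an unadjusted p under 0.05 in limma). The list is brighter still, with a median log2 intensity of 13.6 against 11.6 for the members and 7.64 for all features. The share called among features of that intensity was not taken. These 85 genes were chosen by symbol alone, without S6 kinases and symbols marked as pseudogenes. The choice kept copies and paralogs, and of the 19 genes Rpl22l1, Rpl39l, Rpl37rt and Rpl32l are such. It also kept Rps19bp1, named as a binding protein of S19, which is the 1 lower gene. The median of the 85 genes was 0.23, or -0.46 under median centring, where all features had -0.42 and the members -0.81. On arrays 1 to 3 it was 0.31, 0.28 and 0.15 beside -0.23, -0.12 and -0.01 for the mitochondrial ribosomal proteins, so the cytosolic genes had the higher median on every array. Near-identical copies make some cytosolic probes uncertain, and the difference was not tested. For complex I, whose subunits are in part made on mitochondrial ribosomes, 37 nuclear-encoded genes with Nduf symbols were measured. Of these 0 passed the threshold in limma (7 higher and 3 lower at an unadjusted p under 0.05). Their median was 0.09, or -0.59 with median centring. They were chosen by symbol alone, and a place in complex I was not checked for each. The list holds Ndufa4l2 and Ndufa4, and Ndufa4 (-0.29) is among the 3 lower genes.

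**Figure D5:**
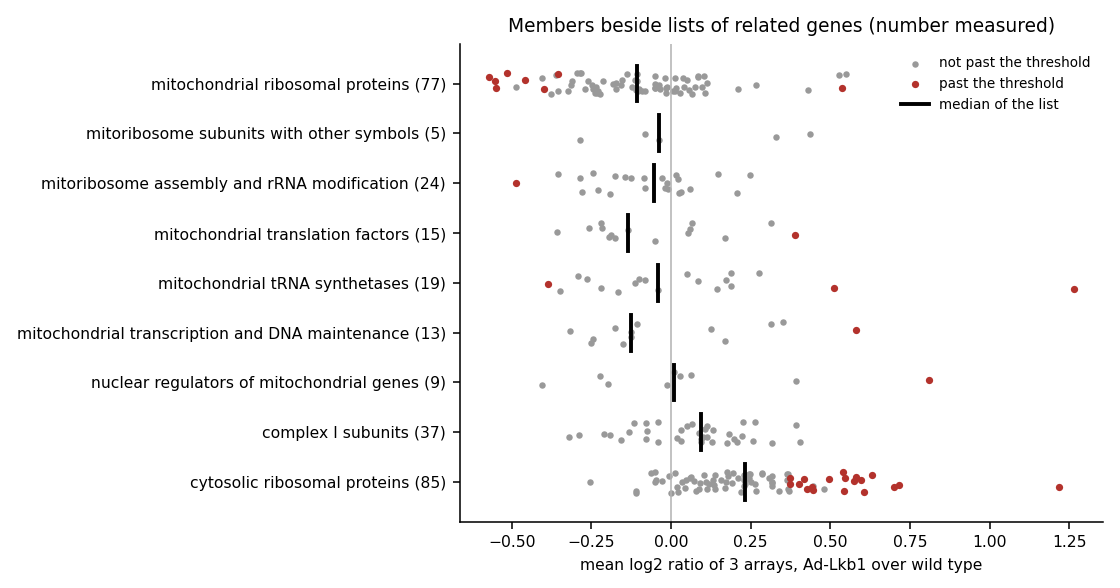
The horizontal axis is the mean ratio of 3 arrays (log2, Ad-Lkb1 over wild type), and each point is 1 gene, with the 77 members on top and 8 lists of related genes below (number measured in brackets). Red points passed the threshold, and black bars are the list medians under loess, from -0.13 for the translation factors to 0.23 for the cytosolic ribosomal proteins. With median centring the cytosolic median was -0.46, beside -0.42 for all features and -0.81 for the members. Of the members, 7 red points lie left of 0 and 1 lies to the right.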

How the data were processed

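Per the file headers, the authors' scanner files give the intensity of spots and of their local background as medians in both channels, beside processed intensity and a log10 ratio (red over green). The submitters' processing notes name Agilent Feature Extraction 11.5. The deposited value table matched that log10 ratio by feature number (r = 1 on each array). Here log2 ratios came from limma 3.58.1 in R 4.3.3, with normexp (offset 50, which understates folds of dim genes) and loess within arrays, control spots having weight 0 and outlier spots left out. The plan named mean signals, and the files hold medians. Levels are log2 values per channel after loess and Aquantile scaling.

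Probes were kept if well above background in at least 1 channel on all 3 arrays (25031 of 55678). Symbols came from RefSeq's GRCm38.p6 gene table (28020 of 29796 probes with an accession matched 1 symbol), and mm9 positions of the array were not used. The brightest probe stood for a gene.

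limma (lmFit, eBayes) tested each ratio against 0, which pairs the samples of an array as the labels do, and Benjamini-Hochberg adjustment covered all 19328 features. Named members were those past the threshold, the 5 highest and 5 lowest of either subunit, the 4 of widest range over arrays, those placed otherwise by structure, the S18 paralogs and some needed to describe a region. Of other lists, genes past the threshold or the 2 of smallest p were named. The factors whose motifs were searched, Ppargc1a, Ppargc1b, the partners of printed stretches, Mrps11 and Mrpl43 were chosen after their values were seen. The members and lists were chosen with earlier results of these data known. The procedure was tested on simulated data. Alternatives changed background, offset, filter, normalization, probe choice, variance model, pairing and arrays.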

Additional observations from a re-analysis of the deposited data

How the results depend on the processing

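With all 14 alternatives the members' median stayed below 0, from -0.81 to -0.04, and only median centring moved it by more than the spread between arrays (to -0.81, where all features had -0.42 and features of like intensity -0.78). Counts moved further. The members called lower were 69 with median centring, 0 with processed signals, 0 with the deposited value table, 4 without background subtraction, 4 without a filter on dim probes, 2 with an offset of 10 and 13 with separate channels and no pairing (no replicate block). The members called higher were 0 with median centring, 0 with processed signals, 0 with the deposited value table and 3 with separate channels. All features past the threshold were 10097, 816, 806, 1033 without the filter and 2933 with separate channels. Leaving out 1 array gave 0 to 5 members lower, 0 to 1 higher and 0 to 2052 features. At an unadjusted p under 0.05 limma then gave 3928, 3563 and 5584 features without array 1, 2 and 3, against 5671 with all. Median centring turned Mrpl54 to -0.17, Mrpl28 to -0.61, Mrpl44 to -0.58, Mrpl20 to -0.49, Mrpl35 to -0.0277, Mrps5 to -0.59, Mrps23 to -0.60, Mrps30 to -0.45, Mrps28 to -0.28, Mrps22 to -0.19, Mrps18b to -0.62, Gfm1 to -0.32, Tars2 to -0.20 and Top1mt to -0.10. Leaving out 1 array moved Mrps5 between -0.0025 (without array 2) and 0.24, Mrps18b between -0.0274 (without array 3) and 0.26, and Mrpl38 between -0.34 and 0.0551 (without array 1). The causes were not tested, except that median centring by its construction keeps a dye curve over intensity. The 7 lower members stayed below 0 under all 14 alternatives, among them median centring, which put all 77 members below 0. Mrps16 and Mrpl51 were past the threshold under 10 and 9 of them, Mrpl54 under 9, Mrpl34 under 8, Mrpl41 and Mrps12 under 7, Mrps25 under 6 and Mrps18a under 5. For each of the 7 lower genes these counts include median centring, which called 69 members lower, and for Mrpl54 they do not. Every member's probe was well above background in both channels, and 3 arrays limit the precision.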
